A study of Canis lupus familiaris with 6 samples.

Results

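The 102 genes described here carry ions, water and metals across the membranes of kidney tubule cells, and they were read in RasV12-transformed kidney cells cultured alone or among normal cells. They were taken by name: every gene on the array whose symbol begins with SLC4A, SLC8A, SLC9A, SLC12A, SLC20A, SLC24A, SLC26A, SLC30A, SLC34A, SLC39A, ATP1A, ATP1B, SCNN1 or KCNJ, or with AQP and a digit. The list of name stems was itself chosen with earlier results of these data known. The array names 157 of its 43603 probes for these genes, out of 34378 names in all. Of the 102 genes, 37 have several probes, up to 5 each, and the probe with the highest mean log2 signal stands for the gene. SLC4A1AP, SLC9A3R1 and SLC9A3R2 share the symbols' stem but encode partner proteins of transporters, and they were kept as a group of their own.

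MDCK cells are an epithelial line from dog kidney, and MDCK-pTR GFP-RasV12 cells are a derivative in which tetracycline switches on GFP-tagged, oncogenic RasV12. All 6 samples received tetracycline for 24 h on collagen-coated dishes, were sorted by flow cytometry for GFP, and were each hybridised to 1 one-colour Agilent canine array. In 3 samples the RasV12 cells had grown alone, and in the other 3 they had grown among normal MDCK cells, given by the study's methods as 10 normal cells to 1 RasV12 cell. For mixed replicate 2 the label puts the ratio at 100 to 1, and an extraction note in the labels names a β-catenin mutant line, whereas the titles and the methods do not for these cells. Both groups carry the same RasV12 construct and drug, so the comparison asks what the normal neighbours alter in the RasV12 cells. Whether the replicates were separate cultures is not stated, so the p-values measure only the spread between these samples.

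A tubule cell keeps its sodium low with the sodium pump on its basal side, and the resulting gradient drives sodium, chloride, bicarbonate and phosphate across the apical and basal membranes through the cotransporters, exchangers and channels of these families. Aquaporins let water follow, and inwardly rectifying potassium channels recycle the potassium that the pump takes in. Zinc moves through a pair of families with opposite directions: ZIP proteins (SLC39A) bring it into the cytosol, and ZnT proteins (SLC30A) take it out of the cytosol, to the outside or into organelles.

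The probes behind the results are 60 bases long, and some are printed here. The reading of AQP2 and SLC39A4 turns on which probe was used, whereas KCNJ12 and SLC30A9 have 1 probe each. Positions are on the canFam3 dog genome as the array files give them, without the exon a probe lies in. For AQP2 the probe used lies at chr27:4750680-4750739 on the minus strand, and a second one stretches over 776 bases, chr27:4746332-4747107 on the same strand, so its 60 bases are not contiguous in the genome. The remaining AQP2 probe, at chr27:4744859-4744918, is given by position only. The KCNJ12 probe lies at chr5:42860274-42860333 on the plus strand, and that of SLC30A9 at chr13:39126804-39134876 on the plus strand, over 8073 bases of genome. Both SLC39A4 probes lie on the minus strand, at chr13:37833240-37833299 and chr13:37833224-37833283. Capitals mark the 44 bases that the SLC39A4 probes share, and the rest is in lower case.
AQP2, probe used: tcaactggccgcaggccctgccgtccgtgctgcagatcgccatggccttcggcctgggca
AQP2, second probe: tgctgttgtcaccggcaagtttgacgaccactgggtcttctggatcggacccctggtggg
KCNJ12: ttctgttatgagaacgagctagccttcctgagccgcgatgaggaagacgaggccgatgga
SLC30A9: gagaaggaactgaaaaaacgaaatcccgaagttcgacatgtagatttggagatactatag
SLC39A4, probe used: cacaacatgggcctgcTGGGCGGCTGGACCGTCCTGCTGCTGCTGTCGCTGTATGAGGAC
SLC39A4, second probe: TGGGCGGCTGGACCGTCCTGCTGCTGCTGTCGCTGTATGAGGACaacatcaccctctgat

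Every level below is a log2 signal relative to the array's own 75th percentile, so a level of 0 is a probe as bright as that percentile, and every difference is mixed culture minus culture alone on that scale. Levels are given in the order of replicates 1, 2 and 3, and are compared only within a probe. Across the arrays, 60.8% to 66.4% of the 43603 probes were well above background by the scanner software's own test, the 75th percentile lay between 592 and 700 units of intensity, and no probe was saturated. Each slide held arrays of 1 group, and an effect of the slide cannot be told apart from one of the culture. The number of calls depended on single arrays: without alone replicate 1, limma called 7335 probes across the array, against 2978 with all 6 arrays. Without mixed replicate 1 it called 2009, and without any 1 of the other arrays 7 to 24. Of 11 epithelial marker genes, 10 were well above background on all 6 arrays, among them CDH16, the cadherin of kidney epithelium. Of the segment markers, 5 of 10 for the proximal tubule (CUBN and SLC22A6 among them), 2 of 9 for the thick ascending limb and distal convoluted tubule (CLDN19 and SLC12A1), 7 of 11 for principal cells and 3 of 10 for intercalated cells were above background on all arrays, whereas UMOD and LRP2, which define the thick ascending limb and the proximal tubule, were so on 0. Of 15 markers of other cell types, 9 were above background on all arrays (VWF, PECAM1 and KDR of endothelium, COL1A1, COL1A2, PDGFRB and ACTA2 of mesenchyme, CD14 and CD68 of myeloid cells), CD3E was on 5 arrays, and PTPRC, CDH5, COL3A1, PDGFRA and DES were on 0. Of the 10 tested, limma called 0 (1 at an unadjusted p under 0.05), and their summed level was 8.38 to 10.5 alone and 9.22 to 10.8 in mixed culture as multiples of the 75th percentile.

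Of the 102 transport genes, 60 were well above background on all 6 arrays, 11 on 1 to 5 arrays and 31 on 0. Testing required a probe above background on all 3 arrays of a group, which held for 66 genes. For 6 of these (KCNJ16, KCNJ3, SLC24A5, SLC34A1, SLC34A2 and SLC4A4) only 1 group met that rule. Detection followed the families unevenly, with 17 of 20 zinc transporters above background on all arrays but 4 of 13 inwardly rectifying potassium channels and 1 of 6 sodium-calcium exchangers. Several genes that define a nephron segment were at background throughout. SLC12A3, the thiazide-sensitive sodium-chloride cotransporter of the distal convoluted tubule, read -7.86, -8.18 and -8.45 alone and -7.71, -7.35 and -7.92 in mixed culture. KCNJ1, the apical potassium channel ROMK, read -7.86, -7.97 and -8.45 alone and -7.72, -7.96 and -7.91 in mixed culture. SLC26A4, the chloride-bicarbonate exchanger pendrin of intercalated cells, read -7.00, -7.75 and -8.16 alone and -7.48, -6.62 and -7.66 in mixed culture. All 3 were above background on 0 arrays and have no fold change. AQP1, the water channel of the proximal tubule, was above background on 1 alone array only and was not tested, with -5.93, -6.48 and -5.47 alone and -6.13, -5.57 and -5.52 in mixed culture.

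**Figure D1:**
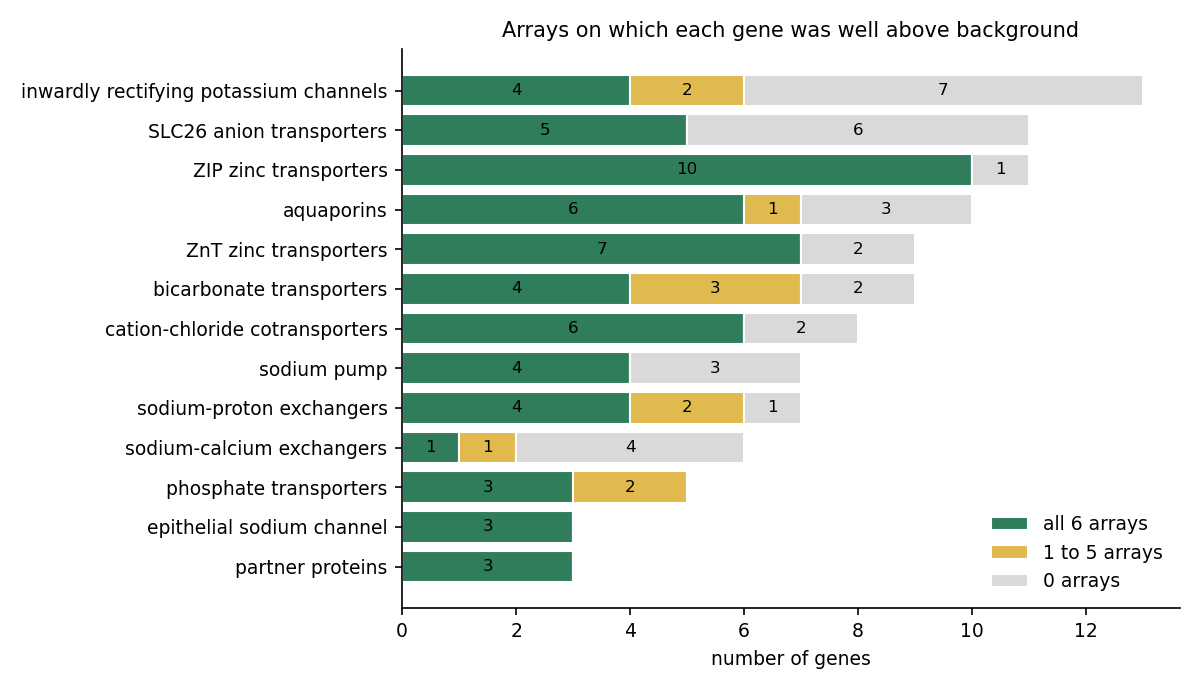
Horizontal bars count the genes of each transport family (x axis, number of genes), split by the number of arrays on which the gene's probe was well above background. Of the 102 genes 60 were so on all 6 arrays, 10 of the 11 ZIP genes among them, and 31 on 0 arrays, 7 of them inwardly rectifying potassium channels.

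The comparison of the cultures used limma's moderated test, two-sided, with Benjamini-Hochberg adjustment over all 26535 tested probes, and a gene is called here at an adjusted p under 0.05. Of the 66 tested transport genes, 6 were called (9.09%), against 11.2% of all tested probes and 10.9% of names at 1 probe each. Some counts are also given at an unadjusted p under 0.05. Every called probe meets that bar too, so with all 6 arrays at least 11.2% of all tested probes met it. The adjustment divides p by the share of probes at or below it, and took AQP10 from 0.0498 to 0.159 (limma). The full share was therefore well above 11.2%, but it was not counted. Among the 66 transport genes 20 met the unadjusted bar. Water channels AQP2 and AQP11, the potassium channel KCNJ12 and the zinc exporter SLC30A1 rose, 4 genes where 5.5% of all probes rose. The zinc transporters SLC30A9 and SLC39A10 fell, 2 genes where 5.72% of all probes fell. For 23 of the 66 genes (34.8%) the groups did not overlap, against 37.2% of all tested probes. The 66 differences ran from -0.78 to 1.96 with a median of 0.05, the median over all tested probes being -0.0037, and 37 were above 0. Their median size was 0.19, against 0.17 over all probes. By these counts the transport genes as a set stood near the background of the array. In bulk RNA, less RNA per cell and fewer cells of a type cannot be told apart.

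**Figure D2:**
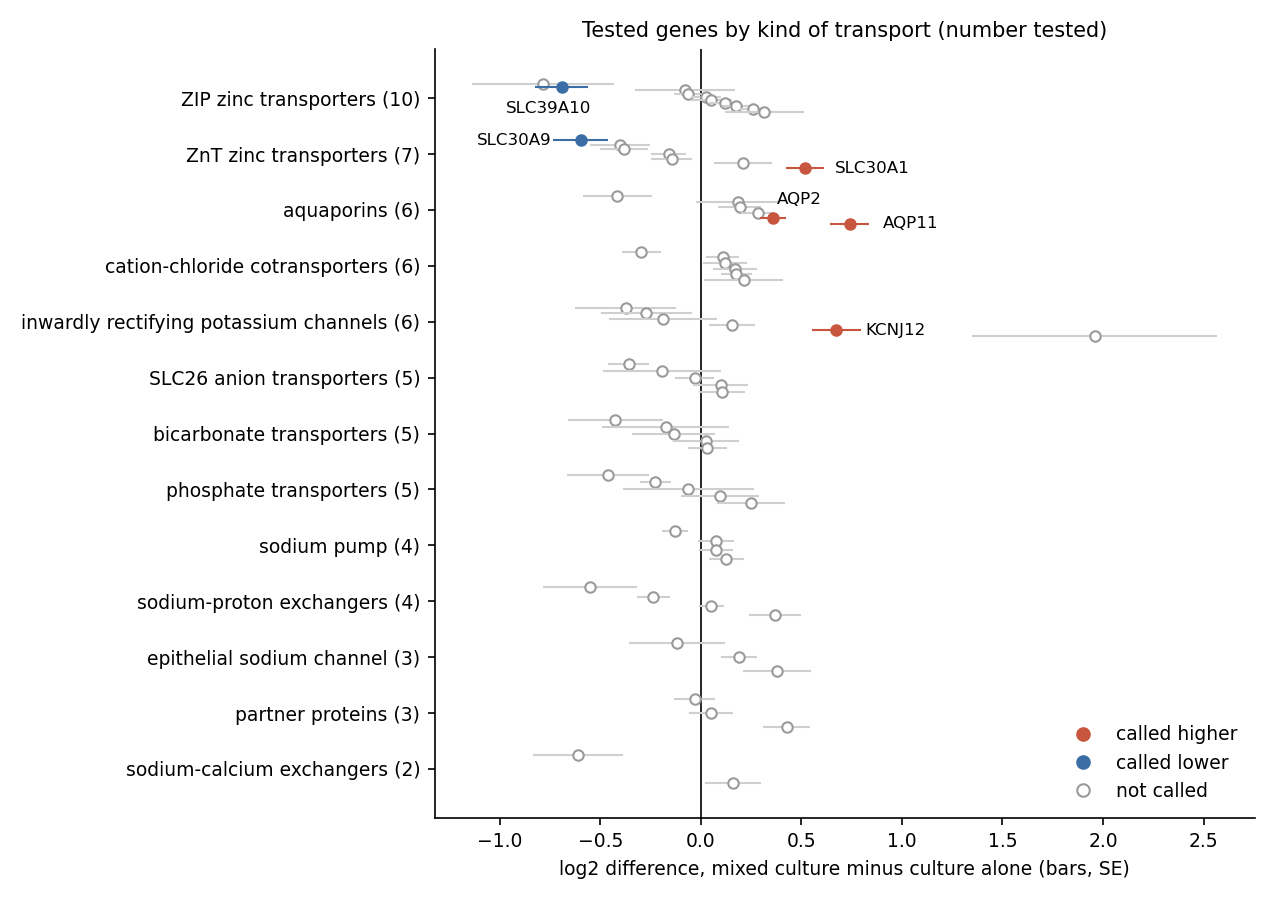
Each circle is 1 of the 66 tested genes, at its log2 difference (x axis, mixed minus alone) with its SE, in a row for its transport family (y axis, with the number tested). The 6 filled circles are the called genes, and the open circle farthest to the right is KCNJ16 at 1.96.

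Zinc transporters gave 3 of the 6 calls, 17.6% of the 17 tested, against 11.2% of all tested probes. Whether the family stood apart from the array was not tested. SLC30A1 (ZnT1), which exports zinc across the plasma membrane, read 2.19, 1.92 and 1.98 alone and 2.63, 2.53 and 2.48 in mixed culture. Every mixed value lay above every alone value. The difference was 0.52 (SE 0.095, n = 3 per group, adjusted p = 0.0259, limma), a 1.43-fold rise. That probe lies at chr7:9956116-9956175 on the minus strand, and a second one, at chr7:9954334-9954393, read -2.25, -2.51 and -2.39 alone and -1.80, -1.86 and -1.82 in mixed culture. It too was called, with a rise of 0.55 (SE 0.086, adjusted p = 0.0193, limma).

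SLC39A10 (ZIP10), a plasma membrane importer of zinc, read 2.08, 2.54 and 2.48 alone and 1.65, 1.73 and 1.64 in mixed culture. All mixed values were below the alone values, of which replicate 1 was the lowest. It fell by 0.69 (SE 0.131, adjusted p = 0.0273, limma), to 0.619 of the level alone, at its 1 probe, chr37:5518660-5518719 on the plus strand. SLC30A9 (ZnT9), a ZnT family member of the mitochondria, read -1.05, -0.65 and -0.56 alone and -1.40, -1.31 and -1.34 in mixed culture. The groups again did not overlap, and alone replicate 1 again lay nearest to the mixed arrays. It fell by 0.60 (SE 0.135, adjusted p = 0.0401, limma), to 0.660 of the level alone.

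SLC39A4 (ZIP4), the importer whose loss causes the zinc deficiency acrodermatitis enteropathica, is the 1 gene whose tested probes fell on both sides of the threshold. The probe used read 0.42, 0.47 and 0.40 alone and 0.69, 0.72 and 0.67 in mixed culture, a difference of 0.26 (SE 0.066, 95% interval 0.10 to 0.42, adjusted p = 0.0532, limma) that was not called. The other probe, which shares 44 of its 60 bases, read 0.14, 0.20 and 0.14 alone and 0.57, 0.54 and 0.58 in mixed culture, and its difference of 0.40 (SE 0.065, adjusted p = 0.0207, limma) was called. In both, all mixed values lay above all alone values.

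SLC39A14 (ZIP14), an importer of zinc and of iron not bound to transferrin, had the lowest difference of any tested gene, -0.78 (SE 0.354, 95% interval -1.63 to 0.06, adjusted p = 0.186, limma), and was not called. Its alone values were -4.40, -3.09 and -3.10 and its mixed values -4.50, -4.14 and -4.32, so alone replicate 1 fell among the mixed arrays. Without that array the difference was -1.22 (SE 0.117, adjusted p = 0.00518, limma). Leaving out the array that overlapped could only widen the difference, and 26.4% of all tested probes were called in that fit. SLC39A1 (ZIP1), a widely expressed importer, read 2.33, 2.25 and 2.39 alone and 2.52, 2.38 and 2.44 in mixed culture, with overlapping groups and a difference of 0.12 (95% interval -0.06 to 0.30, adjusted p = 0.335, limma). Among the 10 tested ZIP genes 1 was called, and 6 differences were above 0. Among the 7 tested ZnT genes 2 were called, in opposite directions, and 5 differences were below 0, SLC30A7 of the Golgi at -0.38 (adjusted p = 0.0828, limma) among them. Over all 17 zinc transporters the median was -0.06, and the remaining 49 tested transport genes had a median of 0.07 with 3 called (6.12%). Of all tested probes 11.2% were called.

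Genes that bind, carry or sense metals were counted beside the zinc transporters. Of 15 on the array, 14 were tested, and 3 rose while 0 fell, where 5.5% of all probes rose and 5.72% fell. The metallothionein MT1E, one of the small cysteine-rich proteins that hold zinc and copper in the cytosol, read 4.56, 4.28 and 4.42 alone and 5.42, 5.37 and 5.44 in mixed culture. No values overlapped, and it rose by 0.99 (SE 0.090, adjusted p = 0.0103, limma). Another metallothionein, MT2A, rose by 0.45 (SE 0.073, adjusted p = 0.0209, limma), from 5.47, 5.54 and 5.56 to 5.92, 5.94 and 6.05. Metallothioneins are close paralogs, so how far these probes tell the copies apart is uncertain. ATP7B, the copper-exporting ATPase of Wilson disease, rose by 0.50 (SE 0.081, adjusted p = 0.0207, limma), from -2.52, -2.40 and -2.31 to -1.95, -1.92 and -1.86. MTF1, the zinc-sensing transcription factor known to act on SLC30A1 and the metallothionein genes, read 0.27, 0.22 and 0.32 alone and 0.26, 0.27 and 0.29 in mixed culture, a difference of 0.00 (95% interval -0.16 to 0.16, adjusted p = 0.979, limma). The ferritin chains FTH1 and FTL, the iron importers TFRC and SLC11A2 and the exporter SLC40A1 were not called, with differences of -0.15 to 0.14. Over the 14 tested genes of the list the differences ran from -0.26 to 0.99. The summed level of the list, which the ferritins and metallothioneins take part in, was 733 to 770 alone and 742 to 781 in mixed culture.

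**Figure D3:**
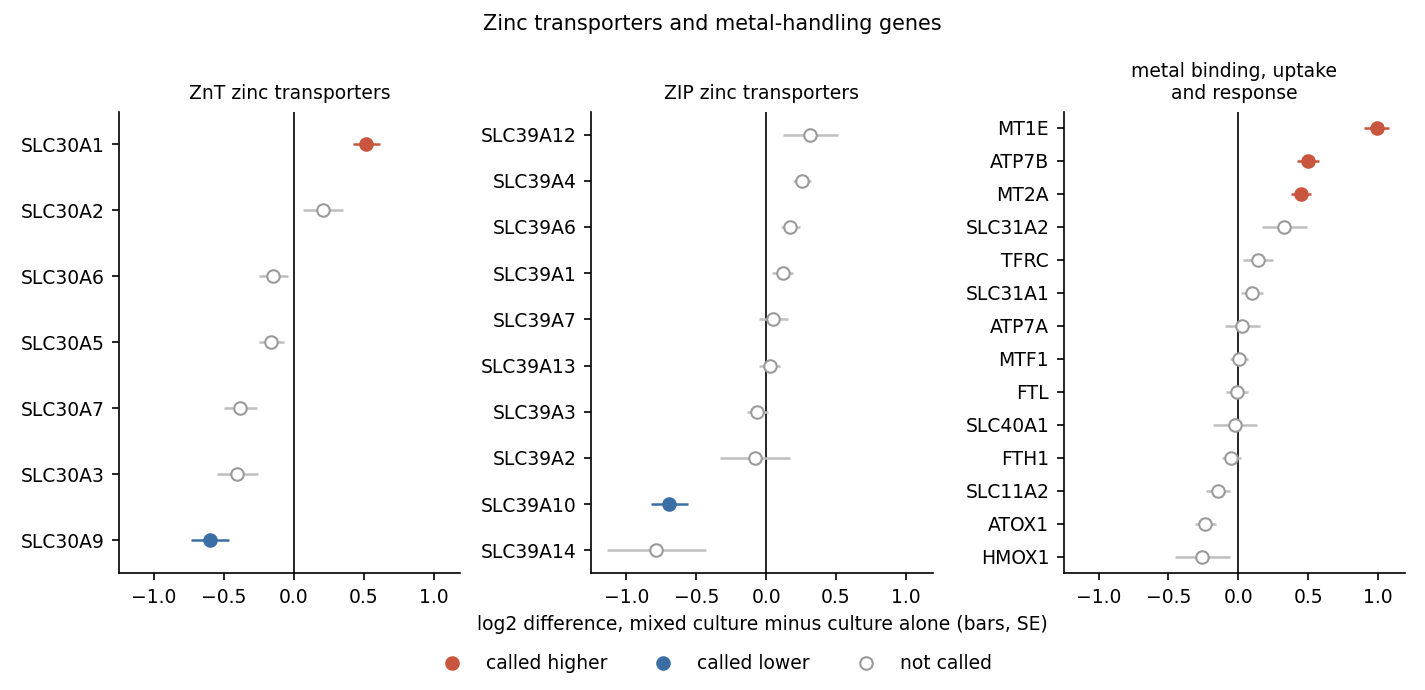
The log2 difference with its SE (x axis, mixed minus alone) is plotted for the 7 tested ZnT genes, the 10 tested ZIP genes and 14 metal-handling genes (rows). SLC30A1, MT1E, ATP7B and MT2A are called higher, SLC30A9 and SLC39A10 are called lower, and MTF1 sits at 0.00.

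Aquaporins gave 2 further calls among 6 tested, both higher, where 11.2% of all tested probes were called. AQP11, an aquaporin of the endoplasmic reticulum whose loss gives cystic kidneys in mice, read -4.22, -4.51 and -4.48 alone and -3.69, -3.64 and -3.67 in mixed culture. The groups lay clear of each other, and AQP11 rose by 0.74 (SE 0.095, adjusted p = 0.0159, limma), or 1.67-fold. Its second probe read -4.81, -4.68 and -4.75 alone and -4.31, -4.10 and -3.80 in mixed culture and rose by 0.68 (SE 0.134, adjusted p = 0.0304, limma). The probes lie at chr21:21170781-21170840 and chr21:21171016-21171075 on the minus strand.

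AQP2, the water channel that vasopressin sends to the apical membrane of collecting duct principal cells, read -3.04, -3.04 and -3.05 alone and -2.65, -2.69 and -2.72 in mixed culture. The alone arrays differed by less than the mixed ones (SD 0.0020 against 0.035, n = 3 each), and no values overlapped. It rose by 0.36 (SE 0.064, adjusted p = 0.0248, limma), or 1.28-fold. This rests on 1 of 3 probes: the others, the second one printed above and the one known by position, were above background on 0 arrays, at -8.15 to -6.52 and -8.03 to -7.40. AQP3, the basolateral water and glycerol channel of the same cells, read -1.03, -0.38 and -0.25 alone and -0.53, -0.24 and -0.33 in mixed culture. The groups overlapped, and the difference of 0.19 was not called (95% interval -0.31 to 0.68, adjusted p = 0.582, limma). Of the 6 tested aquaporins 5 had differences above 0, AQP5 at 0.28 (adjusted p = 0.0716, limma) being the nearest to the threshold among those not called, and AQP10 lay at -0.42 (adjusted p = 0.159, limma).

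Genes of vasopressin signalling and water balance were counted from a separate list of 12 on the array, of which 11 were tested, 2 rose and 1 fell, beside the same 5.5% and 5.72% of all probes. SLC6A12, the betaine transporter that kidney cells use to hold osmolytes, rose by 1.39 (SE 0.223, adjusted p = 0.0207, limma), from -2.74, -2.54 and -2.66 to -1.80, -0.98 and -1.01. ADCY6, an adenylyl cyclase downstream of the vasopressin receptor, rose by 0.35 (SE 0.085, adjusted p = 0.0468, limma). PTGER4, a prostaglandin E receptor, fell by 1.04 (SE 0.186, adjusted p = 0.0247, limma). The receptor itself, AVPR2, differed by -0.12 (adjusted p = 0.613, limma), and NFAT5, the transcription factor of the response to high salt, by 0.10 (adjusted p = 0.688, limma), neither of them called.

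Among the 6 tested inwardly rectifying potassium channels, KCNJ12 was called, where 11.2% of all tested probes were. It encodes a channel that sets the resting potential, and it read -4.45, -4.70 and -4.45 alone and -3.75, -3.76 and -4.07 in mixed culture. All mixed values were higher, with replicate 3 the closest to the alone arrays, and the rise was 0.67 (SE 0.122, adjusted p = 0.0253, limma), or 1.59-fold. KCNJ16, which pairs with KCNJ10 in the basolateral channel of the distal tubule, had the highest difference of any tested gene, 1.96 (SE 0.610, 95% interval 0.50 to 3.42, adjusted p = 0.0850, limma), and was not called. Its alone values were -6.20, -5.03 and -4.60 and its mixed values -4.55, -2.63 and -2.77, so the groups did not overlap. With the replicate number as a block, which pairs the arrays of a number, KCNJ16 was called at the same difference (SE 0.161, adjusted p = 0.0313, limma). It was above background on 2 of 3 alone arrays and on all 3 mixed arrays, so it entered the test only through the group where it was higher. With normexp background correction KCNJ16 had a smaller difference, 0.80, and was called (SE 0.204, adjusted p = 0.0394, limma), where 15.0% of all tested probes were. Its partner KCNJ10 was above background on 0 arrays. The other 4 tested channels had differences of -0.38 to 0.15.

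**Figure D4:**
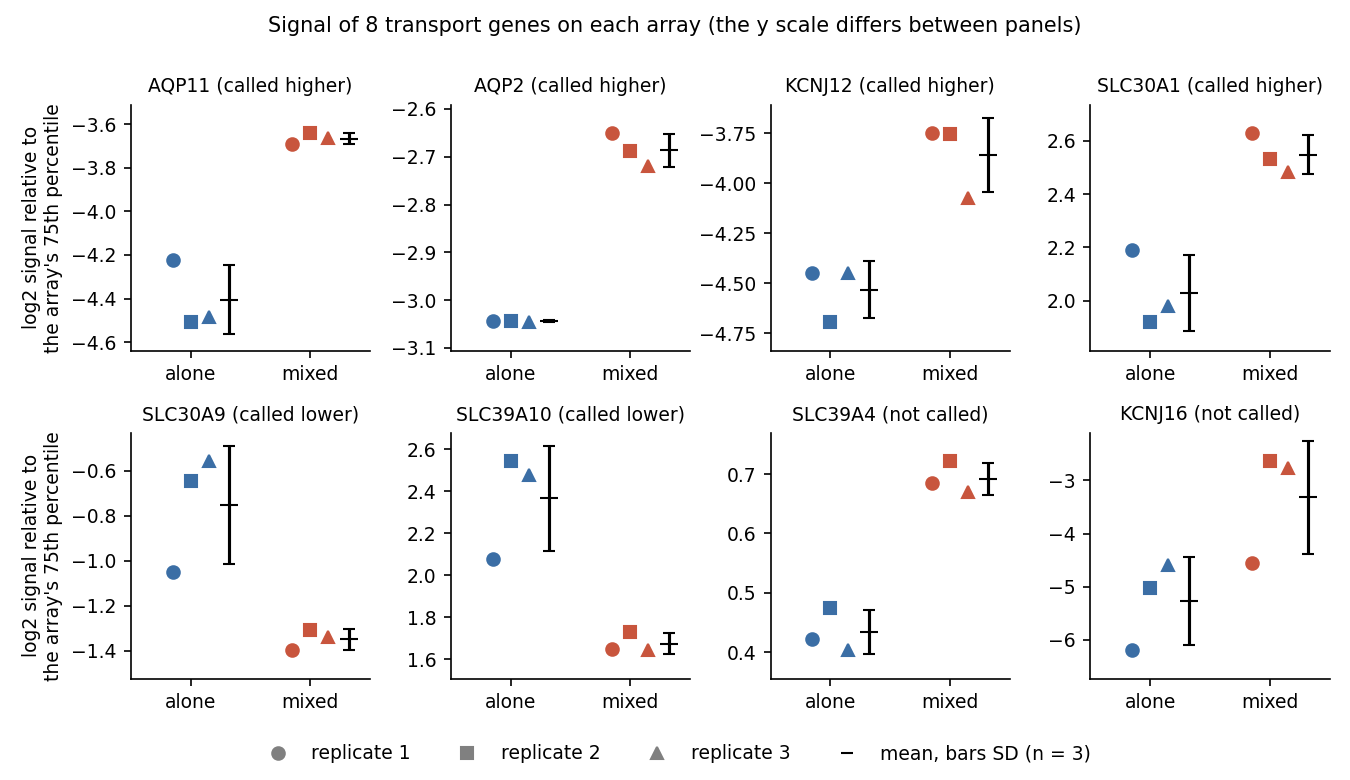
The level on each array (y axis, log2 signal relative to the 75th percentile, with a scale of its own in each panel) is plotted for the 6 called genes and for SLC39A4 and KCNJ16, with the group mean and SD at the side of the points. In all 8 panels the alone and mixed points do not overlap, and replicate 1 of the alone group (circle) lies nearest to the mixed points for AQP11, SLC30A1, SLC30A9 and SLC39A10.

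Of the 4 tested genes of the sodium pump, 3 of the epithelial sodium channel, 6 cation-chloride cotransporters and 4 sodium-proton exchangers, limma called 0. At an unadjusted p under 0.05 these counts were 0, 0, 1 and 2, with SLC12A4 at -0.30 and SLC9A2 at 0.37 among them, and the methods' t-test after adjustment called 0 as well. A second SLC12A4 probe, above background on all 6 arrays, had overlapping groups and differed by -0.012 (adjusted p = 0.965, limma). The share of all tested probes with an unadjusted p under 0.05 by limma was well above 11.2% but was not counted. The unadjusted counts are therefore not read as a difference from the array. ATP1B1, the partner subunit of the pump, read 4.84, 5.01 and 5.00 alone and 5.10, 5.16 and 4.97 in mixed culture. The groups overlapped, and the difference was 0.13 (95% interval -0.08 to 0.34, adjusted p = 0.368, limma). A second ATP1B1 probe went the other way, at -0.10 (adjusted p = 0.474, limma). Of the FXYD proteins that adjust the pump 3 of 4 were tested and 0 were called by limma, FXYD6 at -0.20 being the 1 with an unadjusted p under 0.05. The FXYD differences ran from -0.20 to 0.67, and 2 of the 3 were above 0.

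SCNN1A, SCNN1B and SCNN1G encode the subunits of the epithelial sodium channel of the collecting duct. SCNN1A read -5.10, -5.26 and -5.19 alone and -4.43, -5.07 and -4.91 in mixed culture, a difference of 0.38 (95% interval -0.02 to 0.78, adjusted p = 0.179, limma). SCNN1B read -3.45, -3.31 and -3.50 alone and -3.31, -3.12 and -3.26 in mixed culture, a difference of 0.19 (95% interval -0.02 to 0.40, adjusted p = 0.197, limma). In both the mixed values lay just above the alone values. SCNN1G overlapped, with -4.15, -3.22 and -3.49 alone and -3.88, -3.81 and -3.52 in mixed culture, and differed by -0.12 (95% interval -0.69 to 0.46, adjusted p = 0.770, limma). Among 14 regulators of these channels and carriers on the array, 11 were tested, and 1 rose (5.5% of all probes did): USP2, a deubiquitinase known to act on the channel, by 0.66 (SE 0.139, adjusted p = 0.0355, limma). The kinase SGK1 and the ubiquitin ligase NEDD4L were not called, at 0.15 and 0.04.

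SLC12A1, the loop diuretic-sensitive cotransporter of the thick ascending limb, read -2.18, -1.95 and -2.24 alone and -1.85, -1.91 and -2.10 in mixed culture, with overlapping groups and a difference of 0.17 (95% interval -0.10 to 0.43, adjusted p = 0.342, limma). SLC12A2, the basolateral form found in many cells, read 0.40, 0.24 and 0.23 alone and 0.49, 0.42 and 0.49 in mixed culture. Its groups did not overlap, but the difference of 0.18 was not called (95% interval -0.01 to 0.36, adjusted p = 0.180, limma). SLC9A3, the apical exchanger of the proximal tubule, was not analysed here, since no probe bears that symbol, and its scaffolds SLC9A3R1 and SLC9A3R2 differed by 0.05 and -0.03 without a call.

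The bicarbonate transporters, SLC26 anion transporters and phosphate transporters, with 5 tested genes each, had 0 called by limma or by the methods' t-test after adjustment. At an unadjusted p under 0.05 they had 0, 1 (SLC26A6 at -0.36) and 1 (SLC20A1). SLC4A2, a chloride-bicarbonate exchanger, read 2.02, 1.95 and 1.71 alone and 1.94, 1.95 and 1.89 in mixed culture, a difference of 0.03 (95% interval -0.20 to 0.26, adjusted p = 0.852, limma). SLC4A4, the basolateral sodium-bicarbonate cotransporter, was above background on 3 alone arrays and 1 mixed array, at -5.17, -5.65 and -5.40 alone and -5.76, -5.12 and -5.75 in mixed culture, and differed by -0.14 (95% interval -0.63 to 0.36, adjusted p = 0.690, limma). Both genes' groups overlapped. SLC20A1, a sodium-phosphate cotransporter of most cells, read 7.58, 7.47 and 7.42 alone and 7.31, 7.27 and 7.21 in mixed culture, with all mixed values lower and a difference of -0.23 that was not called (95% interval -0.41 to -0.04, adjusted p = 0.100, limma). The 3 probes of SLC20A1 were each without overlap, at -0.23, -0.16 and -0.43, and 0 were called. SLC34A2, the phosphate cotransporter of lung and gut, was above background on all alone arrays and 2 mixed arrays, read -5.39, -5.18 and -5.37 alone and -5.51, -4.77 and -5.37 in mixed culture, and differed by 0.09 (95% interval -0.37 to 0.56, adjusted p = 0.775, limma). Of the 2 tested sodium-calcium exchangers and the 3 partner proteins limma called 0, with 1 each at an unadjusted p under 0.05: SLC24A5 at -0.61 (adjusted p = 0.119, limma), above background on 3 alone arrays and 1 mixed array and called with the replicate block (adjusted p = 0.0351, limma), and SLC4A1AP, known as kanadaptin, at 0.43 (adjusted p = 0.0639, limma). SLC24A5 entered the test only through the alone group, where it was higher.

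A list of 28 other tubular channels, pumps and carriers on the array gave 1 rise and 1 fall among 18 tested, where 11.2% of all probes were called. CA2, the cytosolic carbonic anhydrase, rose by 0.36 (SE 0.084, adjusted p = 0.0432, limma), and ATP2B4, a plasma membrane calcium pump, fell by 0.82 (SE 0.177, adjusted p = 0.0364, limma). Of the segment marker lists, the principal cell list had 7 of 11 genes tested and AQP2 as its 1 call, its summed level being 1.60 to 1.90 alone and 1.83 alike on the mixed arrays. The proximal tubule, thick ascending limb and intercalated cell lists had 5, 2 and 3 tested genes with 0 called by limma, and 3, 0 and 2 at an unadjusted p under 0.05. Among the Ras-MAPK output genes, counted because every sample expresses RasV12, CCND1, EPHA2 and FOSL1 fell, 3 of 11 tested, where 5.72% of all probes fell. The other 8 were not called, and the 11 differences ran from -0.71 to 0.39 with a median of -0.52 and a summed level of 122 to 126 alone and 99.2 to 114 in mixed culture. The part of these genes in the transport genes' differences was not tested.

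The calls changed with single arrays. Over the 15 alternatives to the processing, every difference of the 6 called genes kept its sign. Most of the alternatives could not have turned it. Leaving out an array cannot do so where the groups do not overlap, as in all 6 genes. A change of test, filter or block reuses the same differences, and the deposited table holds nearly the same values. The sign was open only under quantile normalization, normexp, scaling to spike-in controls and, for AQP11 and SLC30A1, another probe. AQP11 ran from 0.33 to 0.83, AQP2 from 0.20 to 0.37, KCNJ12 from 0.25 to 0.78, SLC30A1 from 0.36 to 0.60, SLC30A9 from -0.76 to -0.45 and SLC39A10 from -0.85 to -0.60. The call was kept in 10 alternatives by AQP11, in 9 by AQP2, in 7 by each of the zinc transporters and in 6 by KCNJ12. Some of these could hardly have lost it. For AQP2, KCNJ12, SLC30A9 and SLC39A10 the lowest tested probe is the probe used, so that alternative repeats the main fit. The deposited table nearly repeats it for all the called genes. Without alone replicate 1, 20 of 68 tested genes were called: the 6 genes and 14 others, among which SLC39A14, SLC9A7, SLC4A7 and SLC30A7 were lower and SLC4A1AP, SLC12A2, SLC39A4 and AQP5 higher. Of all tested probes 26.4% were then called. Without alone replicate 2 or 3, or mixed replicate 2 or 3, limma called 0 transport genes and at most 24 probes of the whole array, with 14 to 17 transport genes at an unadjusted p under 0.05. Without mixed replicate 1 AQP11, AQP2 and KCNJ16 were called.

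**Figure D5:**
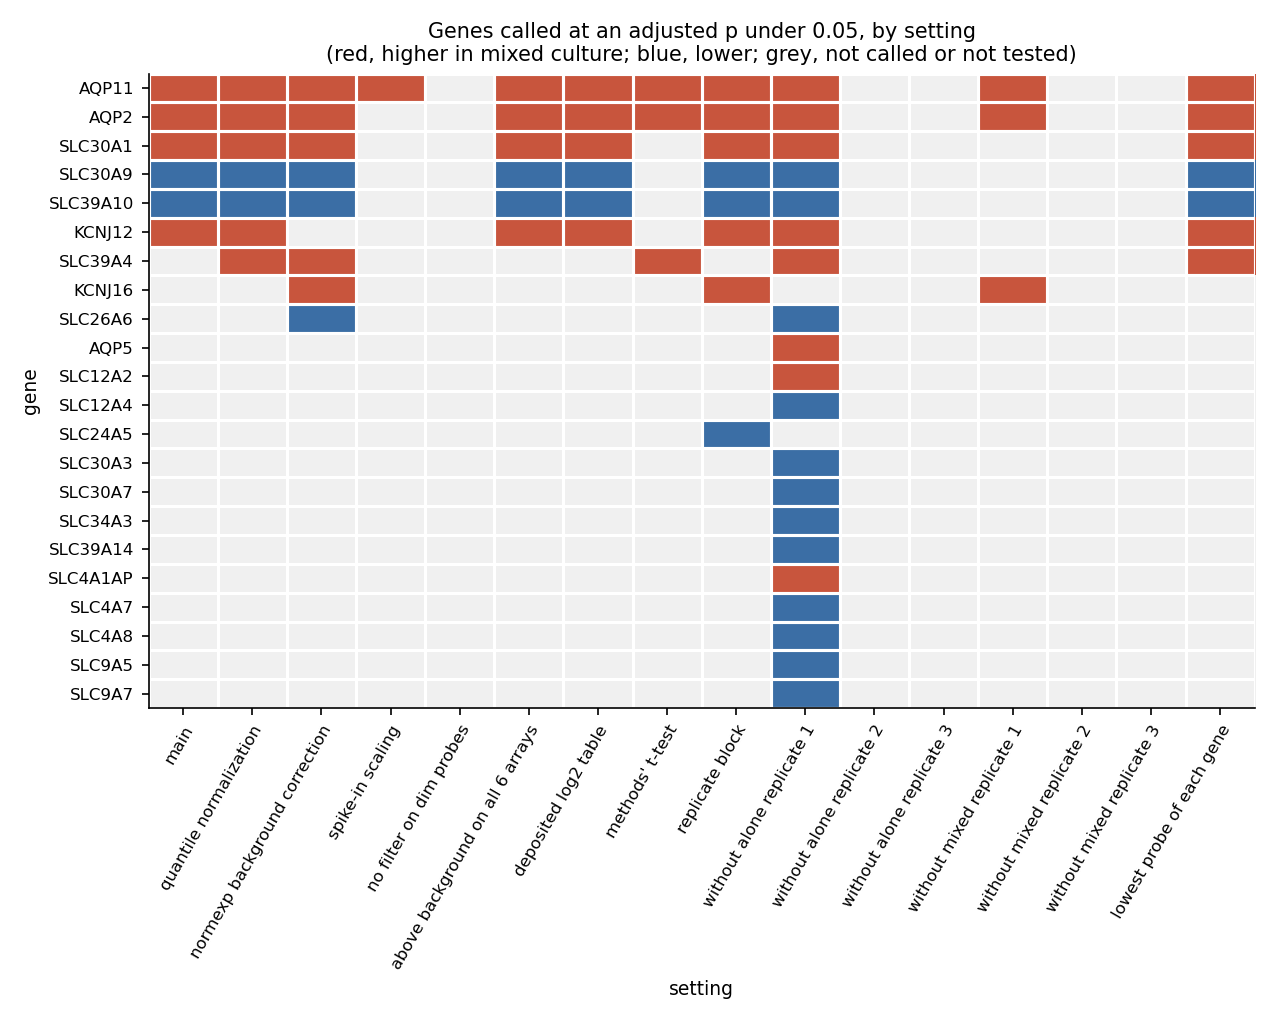
Rows are the 22 genes called under any setting, columns are the settings, and colour gives a call at an adjusted p under 0.05 as higher (red) or lower (blue) in mixed culture. AQP11 is called most often, and 14 genes beyond the 6 appear in the column without alone replicate 1.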

How the data were processed

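Per the file headers, the authors read each array with Agilent Feature Extraction 10.10.1.1 and deposited an intensity per spot, corrected for background. The deposited table of log2 values (26529 probes) equals the log2 processed signal minus each array's 75th percentile, with an offset of -0.00104 to -0.000108. From the processed signal, control spots and 6 to 12 outlier spots per array were left out, spots of a probe averaged, and log2 values scaled to the 75th percentile. A probe entered the test if all 3 arrays of a group had it well above background. The groups were fitted with limma 3.58.1 in R 4.3.3 (lmFit, eBayes), checked on simulated data. Python 3.11.15, pandas 2.3.3, numpy 2.4.6 and matplotlib 3.10.9 were used for tables and plots. The number of arrays limits the precision.

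The member genes and the other lists were chosen with earlier results of these data known. Genes given with values on each array were those called, those at or past 0.5 on the log2 scale without overlap and above background on all 6 arrays (none more), those whose tested probes disagreed, and a list of key transporters, of which some are not reported here. Genes of other lists were named where called, and genes near the threshold or named for reference (AQP5, AQP10, SLC30A7, SLC12A4, SLC9A2, SLC26A6, FXYD6, KCNJ10, MTF1, AVPR2, NFAT5, SGK1, NEDD4L and those named as called under an alternative) were added after their values were seen. Of the metal list, FTH1, FTL, TFRC, SLC11A2 and SLC40A1 were also named, without a call. Gene names are the array's own, and 99 of the 102 are in the RefSeq gene table of the dog. The groups share replicate numbers, which are also positions on the slide. After removing group means, arrays of the same number correlated at 0.349, 0.162 and 0.296 across 26529 probes, and those of different numbers at -0.329 to 0.238. Alone replicate 2 correlated more with mixed replicate 3 (0.238) than with mixed replicate 2 (0.162). Removing the means of 3 arrays also forces some correlations down where others are up. These values therefore cannot settle whether the numbers pair the samples, and a fit with the replicate block was only an alternative. The others were quantile normalization, normexp with an offset of 50, scaling to 8 spike-in controls, no filter, a filter on all 6 arrays, the deposited table, the methods' t-test, each gene's lowest tested probe and leaving out each array. No slide block was possible, as a slide held 1 group.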

Additional observations from a re-analysis of the deposited data

How the results depend on the processing

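Quantile normalization, normexp, the deposited table, the filter on all 6 arrays and the lowest probe gave 6 to 8 called transport genes, against 6. The spike-in controls were all higher in the mean of the mixed arrays, by at most 0.17 on the log2 scale. Single arrays overlapped, with a mean log2 signal of 11.08 for mixed replicate 3 and 11.25 for alone replicate 1. Scaling to these controls moved the median of all probes to -0.16 and that of the 66 transport genes from 0.05 to -0.11, with 1 gene called higher (AQP11) and 0 lower. This scaling turned the sign of 17 genes with differences of at most 0.16 in size, ATP1B1, SLC39A1 and SLC4A2 among them, and of 0 called genes. With no filter, limma called 0 higher and 0 lower (10 and 11 at an unadjusted p under 0.05), when 102 transport genes and 43603 probes entered the adjustment and 12 probes in all were called. The methods' t-test after Benjamini-Hochberg adjustment called AQP11, AQP2 and SLC39A4 higher and 0 lower (9 and 8 unadjusted). With the lowest probe of each gene the median was -0.0173. Leaving out 1 array gave 0 to 8 genes called higher, 0 to 12 called lower and medians of 0.03 to 0.08, the most without alone replicate 1 and 0 without alone replicate 2 or 3 or mixed replicate 2 or 3. The cause of these changes was not tested.

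With the replicate block, 5 genes were called higher and 3 lower with a median of 0.05: the 6 called genes, KCNJ16 at 1.96 (SE 0.161, adjusted p = 0.0313, limma) and SLC24A5, the exchanger known from pigment cells, at -0.61 (SE 0.087, adjusted p = 0.0351, limma). KCNJ16 and SLC24A5 each entered the test only through the group where they were higher, and their calls carry that selection. The pairing changed no other call among the transport genes. Normexp with its added offset of 50 gave 0.80 for KCNJ16, 0.33 for AQP11 and 0.25 for KCNJ12, and the parts of the correction and of the offset in this were not separated. In that fit KCNJ16 (adjusted p = 0.0394, limma) and AQP11 (adjusted p = 0.0189, limma) were called, and KCNJ12 (adjusted p = 0.0525, limma) was not.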
